A study of Mus musculus with 12 samples.

Results

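Prostaglandins and leukotrienes are lipid mediators made from arachidonic acid. The data described here are the mRNA levels of 10 genes of these pathways, chosen by name: the cyclooxygenases *Ptgs1* and *Ptgs2*, the prostaglandin synthases *Ptges* and *Hpgds*, the prostaglandin E2 receptors *Ptger2* and *Ptger4*, the leukotriene genes *Alox5*, *Alox5ap* and *Lta4h*, and the leukotriene B4 receptor *Ltb4r1*. They were chosen with earlier results of these data known. All 10 were found among the 52636 genes listed in each of the 2 count tables. Calcitonin gene-related peptide (CGRP), a neuropeptide released by sensory neurons, was given to neutrophils and macrophages in culture, and the comparison asks how each cell type's transcripts respond to it. Neutrophils and monocytes were enriched by kit from the bone marrow of C57BL/6 J mice aged 8 to 12 weeks. In the Neu_CGRP group, isolated neutrophils received 1 nM CGRP for 4 h in RPMI with 10% FBS, and in the Neu_PBS group they received saline. In the Mac_CGRP and Mac_PBS groups, the same treatments were given to monocytes that had been kept for 3 days in DMEM/F12 with 10% FBS and 10 ng/ml M-CSF, a growth factor that drives differentiation into macrophages. The labels call these cells monocytes/macrophages, and they are called macrophages here. Each group had 3 libraries, numbered as in the labels, and 12 were made in all. Nothing in the labels says whether they came from separate mice, so p-values measure the spread between these libraries, which may be technical.

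Phospholipases release arachidonic acid from membranes. Cyclooxygenases turn it into prostaglandin H2, from which terminal synthases make prostaglandin E2 (*Ptges*), prostaglandin D2 (*Hpgds*) and other prostanoids. In the other branch 5-lipoxygenase (*Alox5*), helped by the membrane protein FLAP (*Alox5ap*), makes leukotriene A4, which the hydrolase encoded by *Lta4h* converts to leukotriene B4, an attractant for neutrophils. The EP2 and EP4 receptors (*Ptger2* and *Ptger4*) bind prostaglandin E2 and raise cyclic AMP, as the CGRP receptor also does.

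The libraries were primed at the poly-A tail and carried molecular tags that remove PCR copies. The total count per library ran from 2719556 to 3631989 in Neu_PBS, from 2196558 to 3270388 in Neu_CGRP, from 2536415 to 3477069 in Mac_PBS and from 2002559 to 3259073 in Mac_CGRP. A count of 3, taken as the lowest detectable level, corresponded to between 0.826 and 1.50 CPM (counts scaled to a common library total), which covers counting error only. Levels are given as CPM scaled by TMM, a factor that evens out differences in composition, within the 6 libraries of a cell type. Sums over marker lists, and gene levels in the comparison of the saline groups and in the order of the 4 groups, are instead scaled over all 12 libraries, which gives slightly different values for the same gene. Errors are SD over 3 libraries. Levels count molecules per library and not per transcript length, so that levels are compared between groups and not between genes. Each log2 fold change compares CGRP with PBS in limma-voom (two-sided, Benjamini–Hochberg adjustment over all genes tested, threshold 0.05). As a check on the treatment, *Thbs1*, which encodes thrombospondin-1, rose by 2.39 on the log2 scale in neutrophils (adjusted p = 6.07e-11) and by 5.02 in macrophages (adjusted p = 1.43e-10).

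The markers of the labelled cell types were where the labels put them. The 12 neutrophil markers, led by *S100a8*, summed to 200322 ± 37627 CPM in Neu_PBS and 348 ± 46.6 CPM in Mac_PBS on the scale of the 12 libraries. The 12 macrophage markers, led by *Apoe*, summed to 2038 ± 6.99 CPM in Neu_PBS and 36088 ± 2281 CPM in Mac_PBS. The neutrophil libraries also held transcripts of other bone marrow cells. Basophil proteases were among them, with *Prss34* at 621 ± 60.6 CPM and *Mcpt8* at 419 ± 45.9 CPM with PBS. So were 6 erythroid markers that summed to 6517 ± 815 CPM. The 6 eosinophil markers summed to 619 ± 42.6 CPM, but the granule gene *Prg2* alone gave 565 ± 38.2 CPM of this. In Neu_PBS, on the scale of the 12 libraries, *Epx* was at 28.1 CPM and *Prg3* at 18.5 CPM. *Siglecf* was at 5.17 CPM and *Ccr3* at 2.24 CPM on that scale, and *Il5ra* was at 0 in Neu_PBS replicates 1 and 2. The eosinophil sum is therefore mostly a measure of *Prg2*. Lymphocyte and NK cell markers summed to 189 ± 14.8 CPM and dendritic cell markers to 59.4 ± 4.21 CPM. In samples of this kind, fewer cells of a type and less RNA per cell cannot be told apart.

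Promoter sequences are shown for the 3 members whose level passed the test, all of them lower with CGRP, and for *Ptgs2*, the one member whose promoter held the core of the cyclic AMP response element. They come from RefSeq (GRCm38.p6), which gave a promoter for 9 of the 10 members, running from 250 bases before the start of transcription to 50 after it (*Alox5ap* had no entry). Both strands were searched for TGACGTCA (the full cyclic AMP response element), TGACG (its first part, which also occurs within the full one), GAGGAAG (a core bound by the myeloid factor PU.1), GGGCGG (a core bound by Sp1) and TATAAA. Capitals mark GAGGAAG in the first pair of stretches, the complement of GGGCGG in the third and the complement of TGACG in the last. Each stretch is written 5′ to 3′ on the strand of its gene. The RefSeq start of *Hpgds* lies inside the gene as GENCODE places it, so that its stretch is upstream of the RefSeq start but within the GENCODE gene, while for the other 3 genes both annotations give the same start.
*Ptgs1*, chr2:36230366-36230425, + strand: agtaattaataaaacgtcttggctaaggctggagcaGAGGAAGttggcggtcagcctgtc
*Hpgds*, chr6:65144751-65144810, − strand: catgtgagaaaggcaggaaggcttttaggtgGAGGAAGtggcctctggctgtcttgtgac
*Ptger4*, chr15:5244218-5244297, − strand: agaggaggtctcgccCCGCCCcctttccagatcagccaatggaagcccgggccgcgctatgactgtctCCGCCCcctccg
*Ptgs2*, chr1:150100001-150100055, + strand: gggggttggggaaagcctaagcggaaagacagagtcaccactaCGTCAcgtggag

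No member promoter held TGACGTCA, which occurred in 1.79% of the 32851 promoters of the same length. TGACG was in the promoter of 1 member, *Ptgs2*, and in 20.8% of all promoters. GAGGAAG was in 3 (*Ptgs1*, *Hpgds* and *Ltb4r1*) against 13.6% of all, and GGGCGG in 5 (*Ptgs2*, *Ptges*, *Ptger4*, *Alox5* and *Ltb4r1*) against 35.7%. TATAAA was in none of the 9 and in 13.6% of all. In *Ptger4*, 4 matches to GGGCGG were found, of which the stretch shows 2. These are matches of letters and not measured binding sites.

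The saline groups first show how the pathway was divided between the cell types, and 6 of the 8 members that could be tested differed between Mac_PBS and Neu_PBS. Of these, *Alox5*, *Ltb4r1* and *Hpgds* met the filter on low counts only through the cell type where they were high. For these genes the counts below, and not the calls, describe the difference. In that comparison 67.9% of the 10694 genes tested passed (32.5% higher and 35.4% lower in macrophages), so a difference between these cells was the rule and not particular to the pathway. The leukotriene B4 genes were on the neutrophil side. *Alox5* had 803, 828 and 763 counts in the 3 Neu_PBS libraries and 1, 4 and 5 counts in the 3 Mac_PBS libraries, which is 250-fold lower by summed counts (95% counting interval 136 to 522). *Ltb4r1* had 1026, 1064 and 1015 counts in Neu_PBS and 7, 4 and 2 in Mac_PBS, a ratio of 249 (146 to 469). The groups did not come near each other for either gene. *Lta4h* was 564 ± 6.41 CPM in Neu_PBS and 55.0 ± 8.98 CPM in Mac_PBS on the scale of the 12 libraries, a fitted difference of 10.3-fold (limma-voom adjusted p = 6.16e-17). *Alox5ap* differed less, with 2212 ± 213 CPM in Neu_PBS and 765 ± 53.9 CPM in Mac_PBS on that scale, a 2.89-fold difference (adjusted p = 3.71e-12). FLAP transcripts were thus well above the floor in macrophages in which *Alox5* transcripts were close to it.

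The cyclooxygenase *Ptgs1* was 7.30-fold higher in Neu_PBS (66.0 ± 2.54 CPM on the scale of the 12 libraries) than in Mac_PBS (9.96 ± 4.82 CPM on that scale; adjusted p = 9.69e-09). *Hpgds* went the other way. It had 797, 925 and 628 counts in Mac_PBS and 7, 9 and 7 counts in Neu_PBS. That is a ratio of 97.8 by summed counts (65.0 to 155), with a fitted log2 difference of 6.52 (SE 0.38). The E2 receptors did not pass, with a log2 difference of macrophages over neutrophils of 0.40 for *Ptger2* (95% interval −0.05 to 0.85, adjusted p = 0.108) and of −0.48 for *Ptger4* (−1.03 to 0.08, adjusted p = 0.122). *Ptgs2* and *Ptges* were too sparse for the filter on low counts. Their summed counts were 28 and 27 in Neu_PBS and 3 and 9 in Mac_PBS, ratios of 9.75 (counting interval 3.01 to 50.1) and 3.13 (1.43 to 7.57). Without that filter both passed as higher in neutrophils. When single libraries were dropped *Ptgs2* passed 10 of 12 times. In those fits it met the filter only through its neutrophil libraries, so the counts and not these calls describe the difference. *Ptger2* passed with quality weights (adjusted p = 0.0400) and *Ptger4* without Neu_PBS replicate 3 (adjusted p = 0.0387). Cell type, time in culture and medium differed together between these groups and cannot be told apart.

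**Figure D1:**
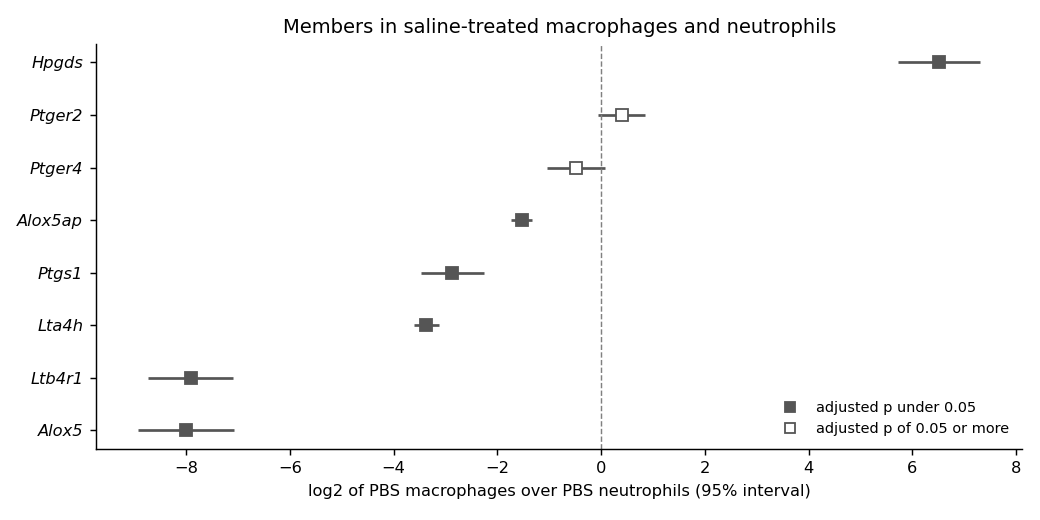
The log2 ratio of saline-treated macrophages to saline-treated neutrophils, with 95% intervals from limma-voom over 12 libraries, for the 8 members that could be tested. Filled squares mark adjusted p under 0.05: *Hpgds* sits on the macrophage side at 6.52, 5 genes sit on the neutrophil side, and the intervals of *Ptger2* and *Ptger4* cross 0. *Alox5*, *Ltb4r1* and *Hpgds* met the filter on low counts only through the cell type where they were high.

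Ordered over the 4 groups, the members showed few patterns. For *Alox5*, *Alox5ap*, *Lta4h*, *Ltb4r1*, *Ptgs1*, *Ptgs2*, *Ptges* and *Ptger4*, both neutrophil groups stood above both macrophage groups in mean level, and for *Hpgds* both macrophage groups stood above both neutrophil groups. *Ptger2* alone was ordered by treatment, with mean levels on the scale of the 12 libraries of 28.8 ± 7.05 CPM in Mac_CGRP, 22.8 ± 2.07 CPM in Neu_CGRP, 18.9 ± 1.94 CPM in Mac_PBS and 14.3 ± 2.03 CPM in Neu_PBS. Neighbours in that order lay close: the lowest Mac_CGRP library (21.6 CPM) fell among the Neu_CGRP libraries (20.6 to 24.7 CPM), and the lowest Neu_CGRP library fell below the highest Mac_PBS library (20.9 CPM). *Hpgds* was the member with the smallest adjusted p under CGRP. The 5 genes whose log2 levels followed it most closely over the 12 libraries were *Pcp4l1*, *Prdx1*, *Igf1*, *Blvra* and *Rab7b*, with Pearson's r of 0.997 for the first and 0.996 for each of the others. These r are a description only, since the 12 points fall into 2 cell types that set most of the range.

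**Figure D2:**
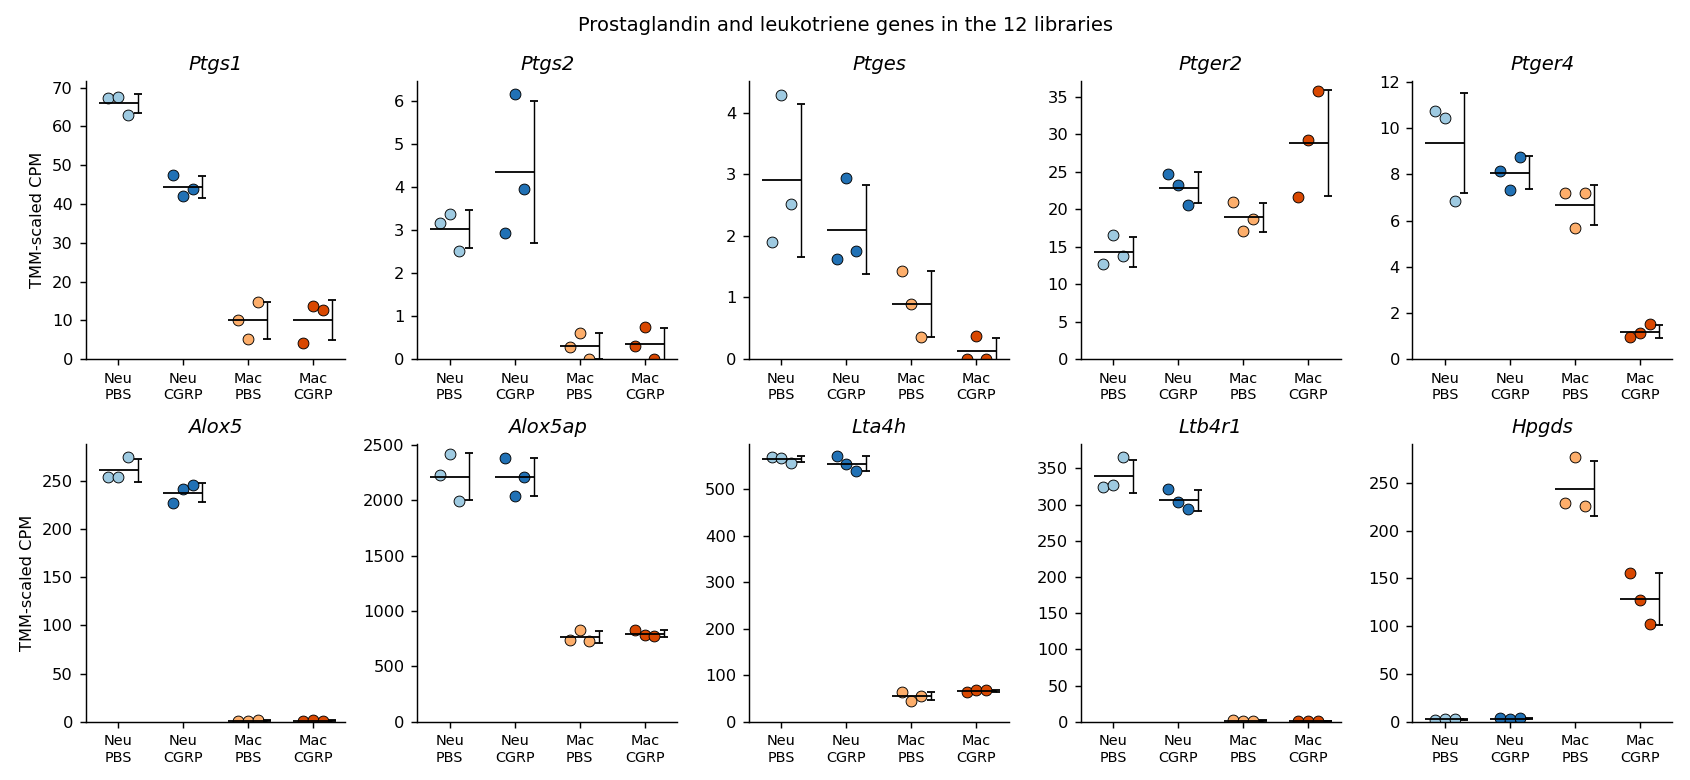
TMM-scaled CPM of each member (vertical axes, linear from 0, a separate scale for each gene) in the 12 libraries, by group on the horizontal axes. Points are libraries, horizontal lines are group means and bars are SD (n = 3), drawn only above 0. *Ptger4* is lowest in the 3 Mac_CGRP libraries, *Hpgds* is high only in the macrophage groups, and *Ptgs1* is lower in the 3 Neu_CGRP libraries than in the 3 Neu_PBS libraries.

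In neutrophils, CGRP lowered 1 of the 7 members that could be tested, *Ptgs1*, and raised none at an adjusted p under 0.05. The background was 2.53% of 9819 genes (1.02% lower and 1.51% higher). At an unadjusted p under 0.05, which 12.8% of all genes tested met, 1 member was lower (*Ptgs1*) and 1 higher (*Ptger2*), and edgeR's quasi-likelihood test and DESeq2 also called *Ptgs1* and no other member. *Ptgs1* (ENSMUSG00000047250, on chromosome 2 from 36230426 to 36252272 of GRCm38) encodes cyclooxygenase-1, the constitutive form of the enzyme. Its level was 66.4, 65.9 and 62.3 CPM in the 3 Neu_PBS libraries and 46.5, 42.0 and 43.9 CPM in the 3 Neu_CGRP libraries, from 213, 220 and 175 counts against 146, 143 and 100. Every CGRP library lay below every PBS library. The level fell by 0.56 on the log2 scale (with SE 0.12 and limma-voom adjusted p = 0.0104), from a mean of 64.9 ± 2.21 to 44.1 ± 2.27 CPM, a ratio of 0.679. The direction was the same without any single library, but the adjusted p rose to 0.0596 without Neu_PBS replicate 1, 0.0556 without Neu_PBS replicate 2 and 0.0783 without Neu_CGRP replicate 2.

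*Ptgs1* is also abundant in platelets and mast cells, and markers of both and of other cells were measured beside it, with their sums on the scale of the 12 libraries and single genes on that of the 6 neutrophil libraries. The 10 platelet and megakaryocyte markers, led by *Pf4*, summed to between 168 and 169 CPM in Neu_PBS and between 128 and 195 CPM in Neu_CGRP, with *Tubb1* and *Gp1ba* at 0 in all 6 libraries and 0 of the 4 that could be tested passing in limma-voom, edgeR or DESeq2 or at an unadjusted p under 0.05. The 11 mast cell and basophil markers summed to 1472 ± 141 CPM in Neu_PBS and 2013 ± 130 CPM in Neu_CGRP, and the groups did not overlap. *Hdc*, the histamine-forming enzyme, was the 1 of 8 tested that passed. It rose from 353 ± 25.7 to 936 ± 72.1 CPM (adjusted p = 1.17e-09) and led the list with CGRP, while *Prss34* led it with PBS. *Prss34* (log2 fold change 0.02, adjusted p = 0.961) and *Mcpt8* (−0.13, adjusted p = 0.626) did not pass. *Kit*, the stem cell factor receptor of mast cells and of progenitors, was the 1 of the list that was lower at an unadjusted p under 0.05. It was 9.97, 8.09 and 9.62 CPM in Neu_PBS and 5.10, 4.40 and 6.14 CPM in Neu_CGRP, without overlap and in the direction of *Ptgs1* (log2 fold change −0.83, adjusted p = 0.169). *Mcpt4*, a mast cell protease, was at 0 in all 6 libraries. The sums of the macrophage, neutrophil, eosinophil, lymphocyte and NK cell, dendritic cell and erythroid markers overlapped between the groups, and no gene of these lists that could be tested passed in limma-voom, edgeR or DESeq2. At an unadjusted p under 0.05, 2 of 11 macrophage markers (*Adgre1* and *Cx3cr1*), 2 of 12 neutrophil markers (*Mmp8* and *Ly6g*) and 1 of 5 lymphocyte and NK cell markers (*Nkg7*) were lower with CGRP, none was higher, and the groups overlapped for *Ly6g* alone among them. *Adgre1*, which encodes the macrophage surface protein F4/80, was 43.6, 43.8 and 34.2 CPM in Neu_PBS and 26.8, 29.9 and 29.0 CPM in Neu_CGRP, a ratio of 0.705 beside the 0.679 of *Ptgs1* (log2 fold change −0.50, adjusted p = 0.0934). The part of all these cells in the *Ptgs1* result was not tested.

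*Ptgs2* (ENSMUSG00000032487, chromosome 1, 150100031 to 150108227), the inducible cyclooxygenase, was near the floor. The Neu_PBS libraries had 10, 11 and 7 counts and the Neu_CGRP libraries 9, 21 and 9, which overlapped. The ratio of the summed counts, CGRP over PBS, was 1.48 with a counting interval of 0.885 to 2.49, so no difference was detectable at this depth. *Ptges* (ENSMUSG00000050737, chromosome 2, 30889471 to 30929863), the microsomal prostaglandin E synthase, had 6, 14 and 7 counts with PBS and 5, 10 and 4 with CGRP (ratio 0.746, interval 0.392 to 1.39). *Hpgds* in neutrophils had 7, 9 and 7 counts against 11, 8 and 9 (ratio 1.29, interval 0.717 to 2.34). All 3 were left out by the filter on low counts.

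Of the E2 receptors, *Ptger2* (ENSMUSG00000037759, chromosome 14, 44988195 to 45003820) had higher values with CGRP but did not pass. It was 12.5, 16.2 and 13.5 CPM in Neu_PBS and 24.2, 23.2 and 20.6 CPM in Neu_CGRP, so that the groups did not overlap. The log2 fold change was 0.70 (SE 0.19, 95% interval 0.30 to 1.09, limma-voom adjusted p = 0.0572), from 14.1 ± 1.92 to 22.7 ± 1.85 CPM. Non-overlap with CGRP above PBS was seen for 8.96% of all genes tested. An antisense gene, *Gm17173*, overlaps *Ptger2* and had at most 12 counts in any library. Another, *Gm49364*, was not analysed here. *Ptger4* (ENSMUSG00000039942, chromosome 15, 5206661 to 5244187) was 10.6, 10.2 and 6.77 CPM with PBS and 7.96, 7.34 and 8.78 CPM with CGRP, which overlapped, and its log2 fold change was −0.20 (95% interval −0.76 to 0.36, adjusted p = 0.835).

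The leukotriene B4 genes, which neutrophils expressed at levels far above the floor, did not pass in neutrophils, and their narrow intervals bound the size of any change. *Alox5ap* (ENSMUSG00000060063, chromosome 5, 149264767 to 149288153) was 2175 ± 196 CPM with PBS and 2195 ± 146 CPM with CGRP, and its log2 fold change was 0.02 (95% interval −0.16 to 0.19, limma-voom adjusted p = 0.970). *Lta4h* (ENSMUSG00000015889, chromosome 10, 93453411 to 93484875) was 560, 554 and 550 CPM with PBS and 560, 554 and 539 CPM with CGRP, and its log2 fold change was −0.01 (interval −0.17 to 0.15, adjusted p = 0.980). For both genes the libraries of the groups were interleaved. *Alox5* (ENSMUSG00000025701, chromosome 6, 116410077 to 116461178) was 250, 248 and 272 CPM against 222, 242 and 246 CPM, a log2 fold change of −0.12 (interval −0.29 to 0.06, adjusted p = 0.626). *Ltb4r1* (ENSMUSG00000046908, chromosome 14, 55765962 to 55768494) was 320, 319 and 362 CPM against 315, 304 and 294 CPM, a log2 fold change of −0.13 (interval −0.30 to 0.05, adjusted p = 0.578). The CGRP libraries lay just below the PBS libraries for these last genes. In all, the groups did not overlap for 4 of the 7 members tested in neutrophils, against 17.8% of all genes tested (CGRP below PBS for 3 of the 7, against 8.83%), and the median log2 fold change of the 7 was −0.12, against 0.00 over all genes.

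**Figure D3:**
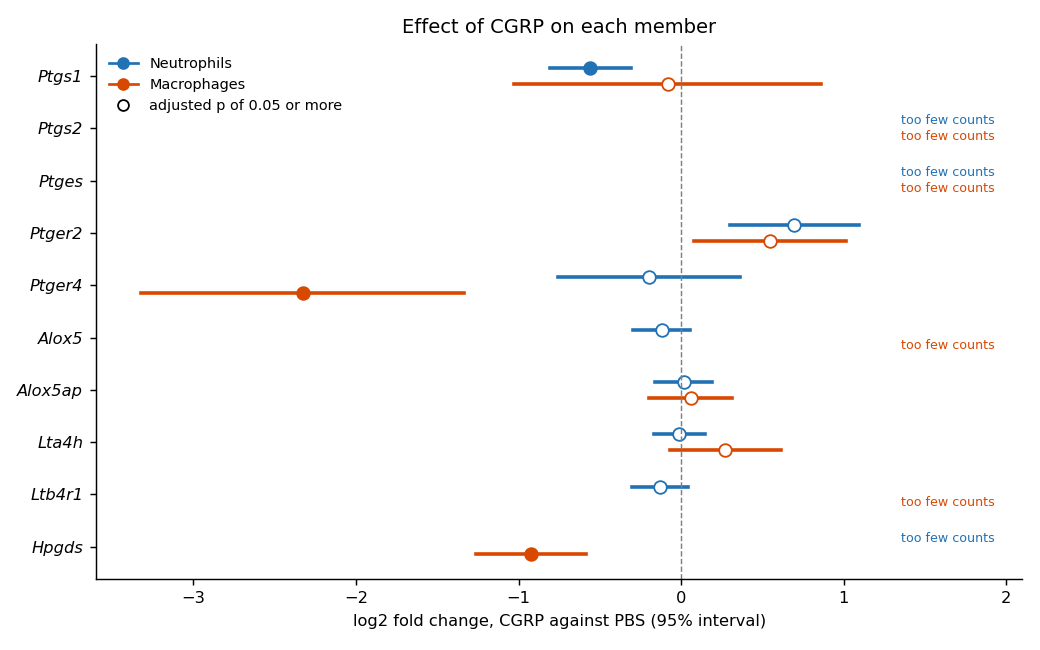
The log2 fold change of each member, CGRP against PBS, with 95% intervals from limma-voom, in neutrophils and macrophages. Filled points (adjusted p under 0.05) are *Ptgs1* in neutrophils at −0.56 and *Ptger4* and *Hpgds* in macrophages at −2.33 and −0.92, while both *Ptger2* points are open and lie above 0. Members with too few counts to test are marked as such.

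In macrophages, CGRP lowered 2 of the 6 members that could be tested, *Hpgds* and *Ptger4*, and raised none at an adjusted p under 0.05. The background was 7.43% of 9393 genes (3.97% lower and 3.46% higher). At an unadjusted p under 0.05, which 19.8% of all genes tested met, *Ptger2* was higher as well, and edgeR's quasi-likelihood test and DESeq2 called *Hpgds* and *Ptger4* and no other member. *Hpgds* (ENSMUSG00000029919, chromosome 6, 65117293 to 65144908) encodes the hematopoietic prostaglandin D synthase. Its level was 232, 280 and 229 CPM in the 3 Mac_PBS libraries and 159, 129 and 103 CPM in the 3 Mac_CGRP libraries. The highest CGRP library was well below the lowest PBS library. From a mean of 247 ± 28.6 to 131 ± 28.2 CPM, *Hpgds* fell by 0.92 on the log2 scale (with SE 0.16 and limma-voom adjusted p = 1.49e-03), a ratio of 0.527, and it passed without any single library as well. Of the last 500 bases of its transcript, where the reads of such libraries gather, 3.19% of the 31-base words also occur in other genes.

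*Ptger4*, the EP4 receptor, was at the floor in every Mac_CGRP library, so the size of its fall rests on few counts. It had 25, 19 and 20 counts in Mac_PBS and 3, 3 and 3 counts in Mac_CGRP, or 7.28, 5.76 and 7.31 CPM against 0.963, 1.12 and 1.52 CPM, with no overlap. The summed counts, 64 against 9, give a level 5.82-fold lower with CGRP after scaling (95% counting interval 2.88 to 13.3), and in limma-voom *Ptger4* fell by 2.33 on the log2 scale (with SE 0.47 and adjusted p = 4.92e-03). The adjusted p was 0.0573 without Mac_CGRP replicate 2. An exon of *Ttc33* overlaps *Ptger4* on the opposite strand, and the strand setting of the counting is not given in the sources used here. *Ttc33* had 139, 113 and 103 counts in Mac_PBS and 130, 81 and 82 in Mac_CGRP, with a log2 fold change of 0.00 (95% interval −0.38 to 0.39, adjusted p = 0.997). The fall of *Ptger4* differed between the cell types: the log2 fold change in macrophages minus that in neutrophils was −2.14 (SE 0.53, interaction adjusted p = 0.0269 in limma-voom over 12 libraries). Of the 8 members tested for such a difference, *Alox5*, *Ltb4r1* and *Hpgds* were too sparse to test in 1 cell type, so their difference was poorly measured. *Ptger4* was the 1 of the 8 for which the difference passed, against 2.36% of 10694 genes (1.15% lower and 1.21% higher in macrophages). This call did not hold when certain libraries were left out, with adjusted p of 0.0512, 0.0573 and 0.0508 without Neu_PBS replicate 3, Neu_CGRP replicate 1 and Neu_CGRP replicate 3, 0.0606 without Mac_PBS replicate 1, and 0.0848, 0.0943 and 0.0538 without Mac_CGRP replicates 1, 2 and 3.

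*Ptger2*, the EP2 receptor, had the opposite sign. It was 21.2, 17.3 and 19.0 CPM in Mac_PBS and 22.1, 29.6 and 36.1 CPM in Mac_CGRP, with all CGRP libraries above the PBS libraries, the first by little. The log2 fold change of 0.55 (95% interval 0.08 to 1.02) did not pass (adjusted p = 0.169). Without Mac_CGRP replicate 1, the lowest CGRP library, it was 0.76 with an adjusted p of 0.0414. The effect of CGRP on *Ptger2* was not found to differ between the cell types (difference −0.14, interval −0.75 to 0.46, interaction adjusted p = 0.893).

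*Ptgs1* in macrophages was 10.2, 5.15 and 15.0 CPM with PBS and 4.17, 13.9 and 12.7 CPM with CGRP. The spread within each group exceeded the difference between their means (log2 fold change −0.08, 95% interval −1.03 to 0.86, adjusted p = 0.948), and the interval holds the fall measured in neutrophils, so the data do not show whether the *Ptgs1* response differs (interaction 0.48, interval −0.42 to 1.38, adjusted p = 0.724). *Alox5ap* was 775 ± 52.5 CPM with PBS and 807 ± 37.1 CPM with CGRP (log2 fold change 0.06, interval −0.20 to 0.31, adjusted p = 0.846). *Lta4h* was 64.3, 46.1 and 57.0 CPM against 64.5, 68.2 and 68.1 CPM (log2 fold change 0.27, interval −0.07 to 0.61, adjusted p = 0.380). The lowest CGRP value of *Lta4h* exceeded the highest PBS value by less than 1 CPM. On the scale of the 12 libraries these libraries were at 63.0 CPM (Mac_CGRP replicate 1) and 63.4 CPM (Mac_PBS replicate 1), so that the groups overlapped. The other 4 members had too few counts to test. *Ptgs2* had 1, 2 and 0 counts with PBS and the same with CGRP, which is at or under the floor. *Ptges* had 5, 3 and 1 counts against 0, 1 and 0, *Alox5* had 1, 4 and 5 against 4, 4 and 2, and *Ltb4r1* had 7, 4 and 2 against 2, 2 and 3. For *Ptges* the ratio of the summed counts, CGRP over PBS, was 0.136 with a counting interval of 0.00310 to 0.980. The groups did not overlap for 4 of the 6 members tested in macrophages, against 24.1% of all genes tested (CGRP above for 2, against 11.9%, and below for 2, against 12.3%), and the median log2 fold change of the 6 was −0.01, against 0.00 over all genes. *Lta4h* counts among the 4 on the scale of the 6 macrophage libraries only.

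Beside these changes, the 12 macrophage markers summed to 36088 ± 2281 CPM in Mac_PBS and 46638 ± 3414 CPM in Mac_CGRP without overlap, on the scale of the 12 libraries as are the other sums here. *Apoe* was the 1 marker that rose and *Cx3cr1* the 1 that fell (log2 fold change −1.36, adjusted p = 1.43e-04), and edgeR called only *Cx3cr1*. *Csf1r* (0.40, adjusted p = 0.153), *Adgre1* (0.29, adjusted p = 0.288) and *Mrc1* (0.23, adjusted p = 0.495) did not pass. Sums of other lists also moved without overlap. Neutrophil markers went from between 307 and 399 CPM to between 423 and 450 CPM, with *Mmp8* and *Retnlg* higher at an unadjusted p under 0.05. Eosinophil markers went from between 9.71 and 12.3 CPM to between 6.54 and 9.09 CPM, with *Ccr3* lower at an unadjusted p under 0.05. Lymphocyte and NK cell markers, led by *Cd79b*, went from between 31.6 and 33.6 CPM to between 37.3 and 40.3 CPM. None of the 9, 2 and 1 genes of these lists that could be tested passed after adjustment in limma-voom, edgeR or DESeq2. The markers of mast cells and basophils summed to 15.3 ± 1.30 and 18.8 ± 2.0 CPM, also without overlap, with *Cma1*, *Mcpt4* and *Tpsb2* at 0 in all 6 libraries and *Prss34* as the most abundant. The sums of the dendritic cell and erythroid markers overlapped between the groups, and no gene of these lists that could be tested passed in limma-voom, edgeR or DESeq2. *Cd209a*, a dendritic cell marker, was higher at an unadjusted p under 0.05, with 2.35 ± 1.34 CPM in Mac_PBS and 5.30 ± 0.678 CPM in Mac_CGRP on that scale. The part of all these cells in the results for *Hpgds* and *Ptger4* was not tested. The platelet list was almost wholly *Pf4*, which gave 630 of 634 CPM in Mac_PBS replicate 1 on that scale, with *Tubb1*, *Gp6* and *Gp1ba* at 0 in all 6 libraries.

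Around the members, 67 other genes of the pathway were listed by role. These lists were chosen with earlier results of these data known, so shares above the background are not independent evidence about the pathway. In neutrophils 41 had enough counts to test, and 3 fell and none rose (7.32% against 2.53% of all genes tested). In edgeR's quasi-likelihood test and in DESeq2, 2 fell and 0 rose. At an unadjusted p under 0.05, which 12.8% of all genes tested met, 7 were lower and 2 higher. In macrophages 35 could be tested, and 6 fell and 1 rose (20.0% against 7.43%), with the same counts in edgeR and DESeq2. At an unadjusted p under 0.05, which 19.8% of all genes tested met there, 7 were lower and 4 higher. The CGRP effect differed between the cell types for 3 of the 42 tested (7.14%, against 2.36% of all genes tested). The 42 include genes too sparse to test in 1 cell type. The median log2 fold change of those tested was 0.00 in neutrophils and 0.07 in macrophages, against 0.00 over all genes in both. In the list named for the release of arachidonic acid, the step before the cyclooxygenases, 4 of 11 genes tested in macrophages fell and 1 rose. Of these, *Pla2g4a*, *Pla2g15* and *Daglb* encode lipases, and *Anxa1* and *Lpcat2* do not. *Pla2g4a*, the cytosolic phospholipase A2 that releases arachidonic acid, was 13.7, 14.2 and 16.1 CPM in Mac_PBS and 5.46, 4.87 and 5.59 CPM in Mac_CGRP. The groups were far apart, and it fell by 1.43 on the log2 scale (with SE 0.29 and adjusted p = 5.44e-03). In neutrophils its values overlapped, with 12.6 ± 3.15 CPM with PBS and 12.4 ± 1.44 CPM with CGRP (log2 fold change −0.00, adjusted p = 0.998). The difference between the cell types passed (−1.41, SE 0.37, interaction adjusted p = 0.0446), but in only 2 of 12 fits that left out a library (adjusted p up to 0.133).

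*Pla2g15*, the lysosomal phospholipase A2, fell by 0.66 on the log2 scale in macrophages, from 223 ± 17.3 to 141 ± 9.59 CPM (adjusted p = 4.71e-03). *Daglb*, a lipase that makes the arachidonate carrier 2-arachidonoylglycerol, fell by 0.62, from 278 ± 24.6 to 182 ± 26.5 CPM (adjusted p = 0.0117; 0.0731 without Mac_PBS replicate 1 and 0.0648 without Mac_CGRP replicate 2). *Anxa1* encodes annexin A1, which is known to restrain phospholipase A2, so that its fall runs against the name of the list. It was 1920, 2325 and 1530 CPM in Mac_PBS and 1332, 975 and 1029 CPM in Mac_CGRP. Every CGRP value was below every PBS value. *Anxa1* fell by 0.78 in macrophages (adjusted p = 5.40e-03; 0.0542 without Mac_CGRP replicate 2). In neutrophils it fell by 0.36 (adjusted p = 0.0491), from 4755 ± 508 to 3701 ± 489 CPM, and did not pass in edgeR's quasi-likelihood test (0.121), DESeq2 (0.0555), with at least 10 counts in every library (0.0592), after thinning to the smallest library (0.0571) or with a replicate block (0.0936), nor without Neu_PBS replicate 1 (0.217), Neu_PBS replicate 2 (0.250), Neu_CGRP replicate 2 (0.243) or Neu_CGRP replicate 3 (0.0759). *Lpcat2*, which makes platelet-activating factor and returns fatty acids to phospholipids, was the gene that rose. It went from 33.1 ± 2.96 to 58.7 ± 11.2 CPM in macrophages, a log2 fold change of 0.79 (adjusted p = 0.0114; 0.0613 without Mac_CGRP replicate 3), against −0.03 in neutrophils (adjusted p = 0.928), and the difference between the cell types passed (0.83, interaction adjusted p = 0.0178), and in 8 of 12 fits that left out a library (adjusted p up to 0.0693).

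**Figure D4:**
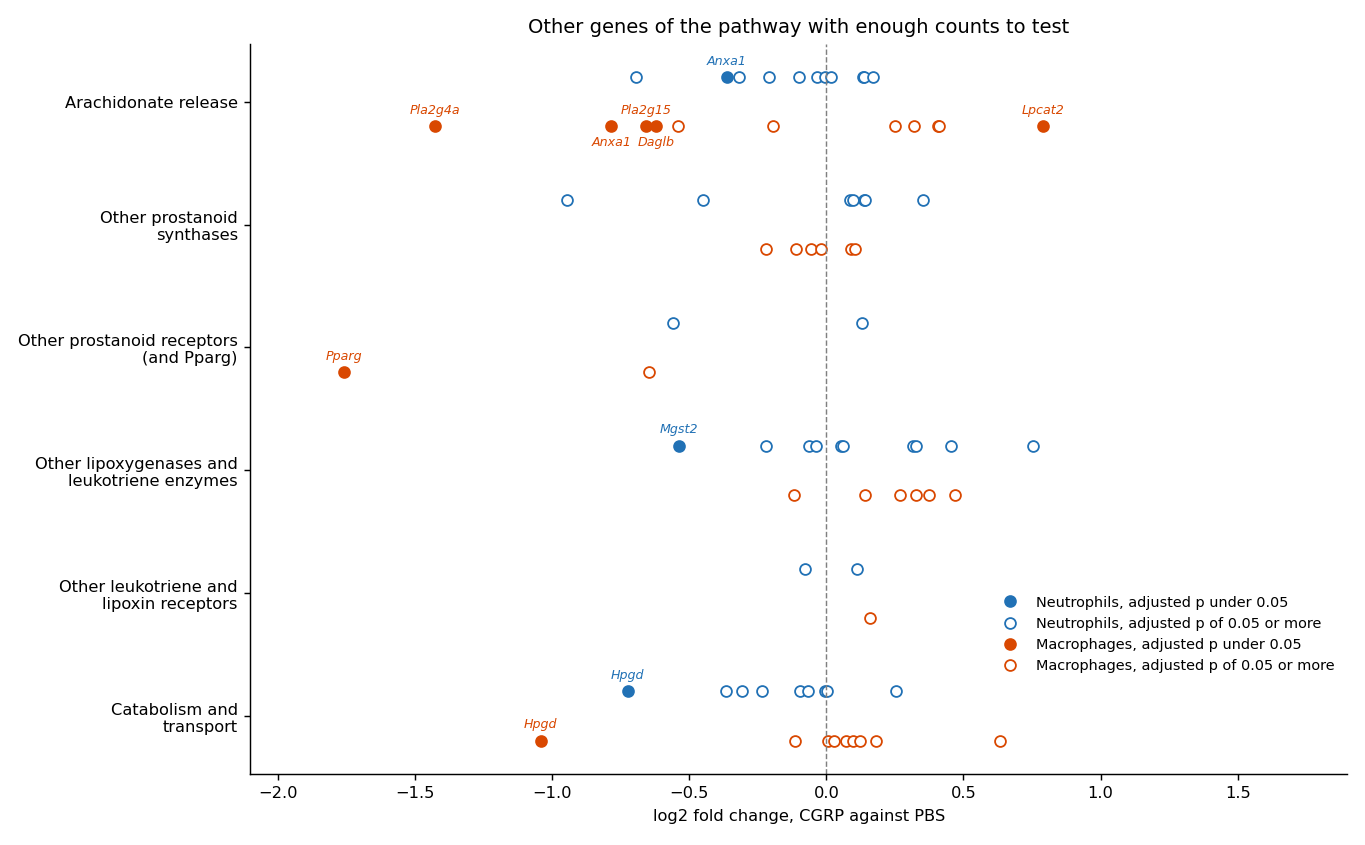
The log2 fold change, CGRP against PBS, of the other pathway genes with enough counts to test, by role (rows) and cell type. Filled, named points passed at an adjusted p under 0.05, and in macrophages 5 of the 7 are in the row for arachidonate release, with *Pparg* farthest to the left at −1.76.

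None of the 7 other prostanoid synthases tested in neutrophils, or of the 6 in macrophages, passed in limma-voom, edgeR or DESeq2. At an unadjusted p under 0.05 there was 1 in neutrophils and 0 in macrophages. The one, named after its values were seen, was *Tbxas1*, the thromboxane synthase, at 10.6 ± 1.20 CPM in Neu_PBS and 5.38 ± 1.29 CPM in Neu_CGRP (log2 fold change −0.94, adjusted p = 0.0974). Among the other receptors 2 could be tested in each cell type, *Pparg* and *Ptgir*. *Ptgir*, named after its values were seen, was lower in macrophages at an unadjusted p under 0.05 (log2 fold change −0.65). It did not pass there (limma-voom adjusted p = 0.183), nor in neutrophils (0.13, adjusted p = 0.772). *Pparg*, a nuclear receptor that prostaglandin D2 products can activate, was 71.3, 63.9 and 84.4 CPM in Mac_PBS and 18.9, 22.9 and 22.9 CPM in Mac_CGRP. It fell by 1.76 on the log2 scale (with SE 0.19 and adjusted p = 1.72e-05) and was near the floor in neutrophils (3.90 ± 0.972 and 2.91 ± 1.46 CPM). *Hpgd*, the dehydrogenase that inactivates prostaglandins, fell in both cell types. In neutrophils it was 53.3, 56.4 and 43.1 CPM with PBS and 38.2, 27.0 and 27.6 CPM with CGRP, a fall by 0.72 on the log2 scale (with SE 0.16 and adjusted p = 0.0129). In macrophages it was 51.8, 42.4 and 34.0 CPM with PBS and 16.7, 22.5 and 24.4 CPM with CGRP, a fall by 1.04 (SE 0.22, adjusted p = 7.07e-03). The groups did not overlap in either. The adjusted p in neutrophils was 0.0707, 0.0837 and 0.126 without Neu_PBS replicate 1, Neu_PBS replicate 2 and Neu_CGRP replicate 2, and in macrophages it was 0.0573 without Mac_PBS replicate 1.

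Of the other leukotriene enzymes, *Mgst2*, a microsomal glutathione transferase that can form leukotriene C4, was 177, 194 and 193 CPM in Neu_PBS and 137, 129 and 121 CPM in Neu_CGRP. All CGRP libraries were below the PBS libraries, and *Mgst2* fell by 0.54 (SE 0.09, adjusted p = 1.19e-03), also without any single library. It was the 1 of 10 of that list to pass in neutrophils, and none of 6 passed in macrophages by any of the 3 tools (*Mgst1* alone at an unadjusted p under 0.05). *Mgst1*, a related transferase, passed in neither cell type alone, at −0.22 in neutrophils on the log2 scale (adjusted p = 0.197) and 0.47 in macrophages (adjusted p = 0.0695), but the difference between them passed (0.71, SE 0.17, interaction adjusted p = 0.0250), in 6 of 12 fits that left out a library (adjusted p up to 0.136). Of the other leukotriene and lipoxin receptors, 2 were tested in neutrophils and 1 in macrophages, and none passed by any of the 3 tools or at an unadjusted p under 0.05. For comparison with cyclic AMP signalling, to which the EP2, EP4 and CGRP receptors all couple, 8 genes that cyclic AMP is known to induce were listed (*Thbs1*, *Crem*, *Nr4a1*, *Nr4a2*, *Nr4a3*, *Pde4b*, *Pde4d* and *Fosl2*). In macrophages all 6 that could be tested rose, against 3.46% of all genes tested, and in neutrophils 3 of 7 did, against 1.51%. The list was chosen with results of these libraries known and holds *Thbs1*, also the treatment check, so it is not independent evidence of a direction. *Crem*, itself a regulator of cyclic AMP response elements, rose by 3.68 on the log2 scale in macrophages (adjusted p = 5.40e-09), while its 0.81 in neutrophils did not pass (adjusted p = 0.0692).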

How the data were processed

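The authors enriched cells from bone marrow, made poly-A-primed libraries with molecular identifiers, and processed the reads with nfCore/RNAseq and its umi function, STAR (GRCm38) and featureCounts. They deposited raw counts per gene, 1 table for each cell type, without normalization. The annotation release and strand setting are not given in the sources used here. All columns matched a sample by name, and no library was a copy of another in its group. Positions came from GENCODE M21 (52403 of 52636 identifiers found).

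The 10 members and the gene lists were chosen with earlier results of these data known. The study names TMM and limma-voom, which were used here (limma 3.58.1, edgeR 4.0.16, R 4.3.3). The filter on low counts (filterByExpr) and a separate fit to each cell type's 6 libraries were chosen here, and 12 libraries in 1 fit gave the interaction and the PBS comparison. Ratios of summed counts have exact binomial 95% intervals. Figures used Python 3.11.15 and matplotlib 3.10.9. Also tried were DESeq2 1.42.0, its size factors, edgeR's quasi-likelihood test, library totals without TMM, no filter, at least 10 counts in every library, voomWithQualityWeights, a replicate block, thinning, and leaving out each library. The steps were tested on simulated data. Named are all members and every listed pathway gene with an adjusted p under 0.05 in a cell type or for the interaction. Also named are the 5 genes most like the member with the smallest adjusted p, the leading markers and markers at 0. *Thbs1* and *Crem* are named as treatment checks, as are overlapping genes. *Tbxas1*, *Ptgir* and a few markers were chosen after their values were seen. *Prxl2b* is listed as *Fam213b*.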

Additional observations from a re-analysis of the deposited data

Results flagged for a closer look

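The effect of CGRP on 4 pathway genes differed between macrophages and neutrophils by the interaction term in limma-voom, 1 of the 8 members and 3 of the 42 other pathway genes tested, against 2.36% of 10694 genes. The genes tested include some that were too sparse to test in 1 cell type, among them *Alox5*, *Ltb4r1* and *Hpgds*. All come from lists chosen with earlier results of these data known. For *Ptger4* the log2 fold change in macrophages minus that in neutrophils was −2.14 (adjusted p = 0.0269), for *Pla2g4a* it was −1.41 (adjusted p = 0.0446), for *Lpcat2* it was 0.83 (adjusted p = 0.0178) and for *Mgst1* it was 0.71 (adjusted p = 0.0250). In 12 fits that each dropped a single library, the call held 5 times for *Ptger4*, 2 times for *Pla2g4a*, 8 times for *Lpcat2* and 6 times for *Mgst1*. The direction was the same each time. *Pla2g4a* passed only without Neu_PBS replicate 1 or Neu_CGRP replicate 2 and had an adjusted p of 0.0616 to 0.133 in the other 10 fits. *Lpcat2* did not pass without Neu_PBS replicate 2 (0.0558), Neu_PBS replicate 3 (0.0529), Neu_CGRP replicate 1 (0.0521) or Mac_CGRP replicate 3 (0.0693). *Mgst1* did not pass without Neu_PBS replicates 1, 2 and 3 (0.0665, 0.0871 and 0.0626), Neu_CGRP replicate 2 (0.112), Mac_PBS replicate 1 (0.136) or Mac_CGRP replicate 3 (0.0569). Under the other settings, *Pla2g4a* was lost with no filter (adjusted p = 0.0870) and *Lpcat2* with library totals (adjusted p = 0.0819).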

How the results depend on the processing

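The falls of *Ptgs1* in neutrophils and of *Hpgds* in macrophages passed under all 9 alternatives tried besides leaving out libraries (adjusted p from 7.61e-03 to 0.0495 and from 1.11e-05 to 1.71e-03), and that of *Ptger4* in macrophages under the 8 that could test it. With at least 10 counts required in every library *Ptger4* was not tested, which leaves 1 member called in macrophages. *Ptger2* in neutrophils passed under none of the 9 (0.0543 to 0.195). Quality weights gave 1406 genes in macrophages and 520 for the interaction, against 698 and 252. Library totals without TMM gave 150 higher and 64 lower genes in neutrophils, against 148 and 100, and 88 and 154 for the interaction, against 129 and 123. Without one library, the counts ran from 138 to 234 genes in neutrophils, 347 to 765 in macrophages and 149 to 328 for the interaction, and the members called from 0 to 1, 1 to 3 and 0 to 1. The members that differed between the PBS groups numbered 6 to 8 over all alternatives. The libraries that moved these gene counts by over 1.5 times were Neu_PBS replicates 1 and 2 (138 genes without either) and Neu_CGRP replicate 2 (153) in neutrophils, Mac_PBS replicate 1 (347), Mac_CGRP replicate 2 (348) and Mac_CGRP replicate 3 (439) in macrophages, and Mac_PBS replicate 1 (149) for the interaction. Signs turned only for members that passed in no setting there. These were *Lta4h* in neutrophils (0.047 with library totals, −0.023 to 0.0043 without a library), *Alox5ap* in neutrophils (−0.0061 with no filter, −0.0055 with quality weights, −0.056 to 0.071 without a library), *Ptgs1* in macrophages (0.0091 in DESeq2, 0.19 with quality weights, −0.51 to 0.56 without a library), and the interaction of *Alox5ap* (−0.056 with library totals, −0.019 to 0.11 without a library), *Alox5* (−0.057 to 1.07), *Ltb4r1* (−0.59 to 0.024) and *Ptger2* (−0.29 to 0.072). The cause of these turns was not tested.

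Replicate numbers are shared between groups, but libraries with the same number did not deviate together in every pair (correlations of 0.04, −0.01 and 0.13 in neutrophils and 0.06, −0.18 and 0.27 in macrophages), so the numbers were not taken to mark pairs. A block for the number gave 266 genes in neutrophils, 915 in macrophages and 337 for the interaction, the same members passed, *Ptgs1* in macrophages was at 0.010, and *Anxa1* in neutrophils did not pass (adjusted p = 0.0936). With between 2002559 and 3631989 counts per library, *Ptgs2* and *Ptges* in both cell types, *Hpgds* in neutrophils and *Alox5* and *Ltb4r1* in macrophages were too sparse to test.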
